A study of Homo sapiens with 8 samples.

Results

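The 6 genes described here, ACTB, GAPDH, EEF1A1, ACTG1, HSPA8 and NCL, are widely used as examples of highly transcribed housekeeping genes and are not classic targets of p53. They were examined as control loci in a chromatin immunoprecipitation sequencing (ChIP-seq) study of the tumour suppressor p53, which asked where p53 bound at baseline and after DNA damage. The members are 6 genes chosen by name, each with a fixed window on build hg19, and every deposited peak that overlapped a window by at least 1 bp was taken: 45 and 32 peaks from the Dox lists of replicates 1 and 2, which hold 46658 and 16642, and 31 and 44 peaks from the PBS lists, which hold 11304 and 22978. The cells were 293T, an established line from human embryonic kidney. All groups share its simian virus large T antigen, which binds p53. The cells received doxorubicin (Dox), a topoisomerase poison that breaks DNA, at 0.5 µg/ml, or 20 µl of phosphate-buffered saline (PBS) as vehicle, for 24 h, and chromatin was precipitated with antibody clone 1C12 against p53. Each condition had 2 ChIP libraries, replicate 1 from passage 3 and replicate 2 from passage 5, and the 4 input samples were not analysed here. The libraries of a condition thus differ in passage, which is part of the spread that every p-value here rests on. Peak lists hold no RNA measurement, so high transcription of the 6 genes in these cells could not be checked.

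As background, p53 binds DNA as a tetramer at a response element made of a pair of short half-sites, and it activates genes for cell cycle arrest, repair and cell death after damage. ACTB and ACTG1 encode the cytoplasmic actins, the subunits of the cell's thin filaments. GAPDH encodes a glycolytic enzyme, EEF1A1 the factor that brings aminoacyl-tRNA to the ribosome, HSPA8 a constitutive chaperone of the HSP70 family, and NCL nucleolin, an abundant nucleolar protein of ribosome production. Such genes are transcribed in nearly all cells, and their loci often serve as controls for factors that are not thought to regulate them.

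The windows lay at chr7:5557000-5580000 (ACTB), chr12:6634000-6658000 (GAPDH), chr6:74216000-74241000 (EEF1A1), chr17:79467000-79490000 (ACTG1), chr11:122918000-122944000 (HSPA8) and chr2:232309000-232339000 (NCL), and were 23 to 30 kb long. An hg19 gene annotation was not used here, so peaks are given by their distance from the centre of the window and not as promoter, exon or intron. By gene order in RefSeq on GRCh38.p14, genes within 10 kb of a member include NCAPD2 and IFFO1 beside GAPDH, MTO1 beside EEF1A1, FSCN2 beside ACTG1 and CLMP beside HSPA8. HSPA8 carries the small nucleolar RNA genes SNORD14C, SNORD14D and SNORD14E in that span and NCL carries SNORA75, SNORD20 and SNORD82, and a peak in these windows need not belong to the member.

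RefSeq promoter sequences (build GRCh38.p14) were matched for 5 of the 6 members, GAPDH, EEF1A1, ACTG1, HSPA8 and NCL. The 250 bases before the gene start were searched for the p53 half-site, a motif of 10 letters that reads the same on both strands, and for the CArG box, the element of serum response factor, also of 10 letters and the same on both strands. The ACTG1 sequence held 1 match of each, and the other 4 held neither. Of all 35116 promoters in the table, 5.57% held a p53 half-site, 1.16% a CArG box and 0.0826% both. The ACTG1 sequence is shown because it holds the half-site, in capitals, and that of EEF1A1 as a member without a match whose window held a peak of q near or under 0.05 in each library.
ACTG1 (chr17:81512800-81513049, minus strand, GRCh38.p14): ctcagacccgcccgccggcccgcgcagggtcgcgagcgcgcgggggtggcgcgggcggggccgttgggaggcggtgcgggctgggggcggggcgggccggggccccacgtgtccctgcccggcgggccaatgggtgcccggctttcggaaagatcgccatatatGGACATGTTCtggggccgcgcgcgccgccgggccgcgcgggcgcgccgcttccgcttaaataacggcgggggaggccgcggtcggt
EEF1A1 (chr6:73521033-73521282, minus strand, GRCh38.p14): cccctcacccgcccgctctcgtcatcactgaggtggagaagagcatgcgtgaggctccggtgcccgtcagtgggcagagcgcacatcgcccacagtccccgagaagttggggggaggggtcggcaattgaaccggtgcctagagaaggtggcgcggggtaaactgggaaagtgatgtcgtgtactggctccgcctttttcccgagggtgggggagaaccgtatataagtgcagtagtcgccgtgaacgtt
The ACTG1 half-site GGACATGTTC ran from 86 to 77 bases before the gene start and shared 2 bases with the CArG box CCATATATGG, which began 94 bases before it. These positions are on another build than the peaks and were not placed under a peak. A match is only a run of letters and does not show binding, and the motifs were chosen after the sequences had been seen.

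None of the 6 windows was empty. Every window held at least 1 peak in each of the 4 libraries, while 20.0%, 9.20%, 6.63% and 12.4% of all 25 kb tiles of the genome held a peak in Dox replicates 1 and 2 and PBS replicates 1 and 2, and 3.67% held a peak in all 4. Tiles are consecutive stretches over the chromosomes, unsequenced gaps included, and serve as a description of how common peaks are. Peak density in the windows was 298 and 212 peaks per Mb in Dox replicates 1 and 2, and 205 and 291 per Mb in PBS replicates 1 and 2. Over all chromosomes the same libraries had 15.4, 5.48, 3.73 and 7.57 peaks per Mb, so the windows were 19.4, 38.6, 55.1 and 38.5 times as dense. In the 100 kb on each side of the windows, pooled over the 6 genes, the density was 76.7, 26.7, 16.7 and 33.3 peaks per Mb. This lay between the windows and the genome in each library. It did not hold for each gene. Around HSPA8 the flanks had 10, 10, 0 and 0 peaks per Mb, below the genome in all but Dox replicate 2. The flanks of EEF1A1 in PBS replicate 1, with 0, and of NCL in Dox replicate 2, with 5, were also below the genome. Around ACTG1 the flanks had 170, 45, 25 and 70 peaks per Mb, between its window and the genome in each library.

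**Figure D1:**
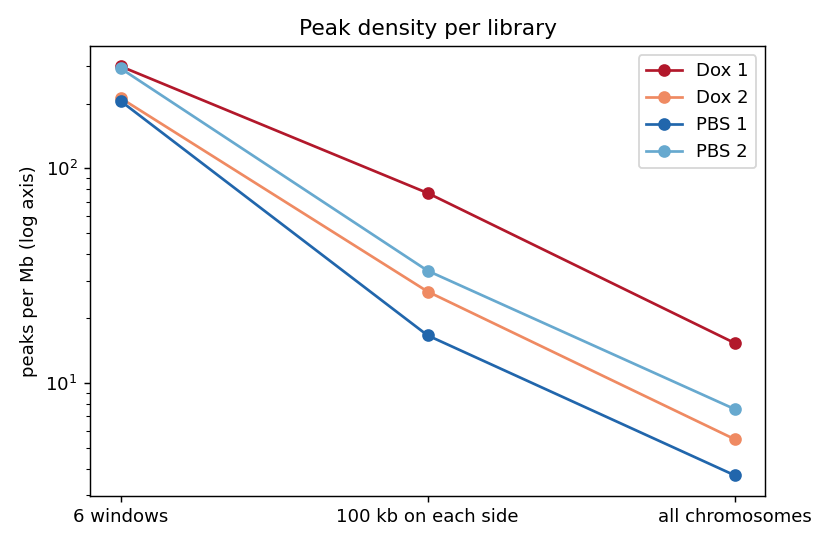
Peaks per Mb (log axis) in the 6 windows together, in the 100 kb on each side of them and over all chromosomes, 1 line per library. In each of the 4 libraries the windows are the densest, from 205 to 298 peaks per Mb, and the pooled flanks lie between the windows and the genome.

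Within their lists, most of the windows' peaks stood above the middle by fold enrichment and well below the highest peak. The fold is the authors' height of a peak over the caller's local background. Each list has its own scale, so folds printed or plotted side by side describe each list, and no difference between libraries is read from their size. Its highest value in the windows was 6.46 and 5.75 in Dox replicates 1 and 2 and 5.81 and 7.16 in PBS replicates 1 and 2, against 26.9, 22.4, 20.0 and 25.6 for the highest peak of each list. Ranked by p, the best window peak stood at 403, 302, 171 and 231 in the same order. The windows placed 6, 12, 8 and 5 peaks among the first 1000, ties included, which is 13.3%, 37.5%, 25.8% and 11.4% of their peaks, against 2.17%, 7.17%, 8.96% and 4.57% of the lists. The median percentile of fold of the windows' peaks in their own list was 84.7, 70.3, 71.5 and 74.6.

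The peaks were also wider than most. Their median width was 433, 551, 515 and 414.5 bp in Dox replicates 1 and 2 and PBS replicates 1 and 2, against 282, 288, 281 and 281 bp for the whole lists. Peaks of at least 1 kb were 8, 7, 4 and 8 of the windows' peaks, or 17.8%, 21.9%, 12.9% and 18.2%, against 2.30%, 1.77%, 1.75% and 1.95% of the lists. The widest peak of the whole list of PBS replicate 2, of 5118 bp, lay in the EEF1A1 window.

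A −log10 q of at least 1.3, which is a q of about 0.05, was reached by 10, 11, 3 and 8 of the windows' peaks, or 22.2%, 34.4%, 9.68% and 18.2%. In the whole lists the shares were 3.66%, 4.84%, 2.56% and 5.98%. Windows with such a peak numbered 6 and 5 in Dox replicates 1 and 2, and 2 and 4 in PBS replicates 1 and 2, while 1.25%, 0.556%, 0.197% and 0.970% of all tiles had such a peak. The counts of PBS replicate 2 include the GAPDH window through 2 peaks with a −log10 q of 1.30029. At a q of exactly 0.05 these peaks and that window would drop out. The Dox and PBS counts of windows do not overlap (two-sided exact permutation p = 0.333, the smallest possible), and PBS replicate 1, the lowest, is also the shortest list. EEF1A1 alone of the 6 reached the threshold in all 4 libraries.

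**Figure D2:**
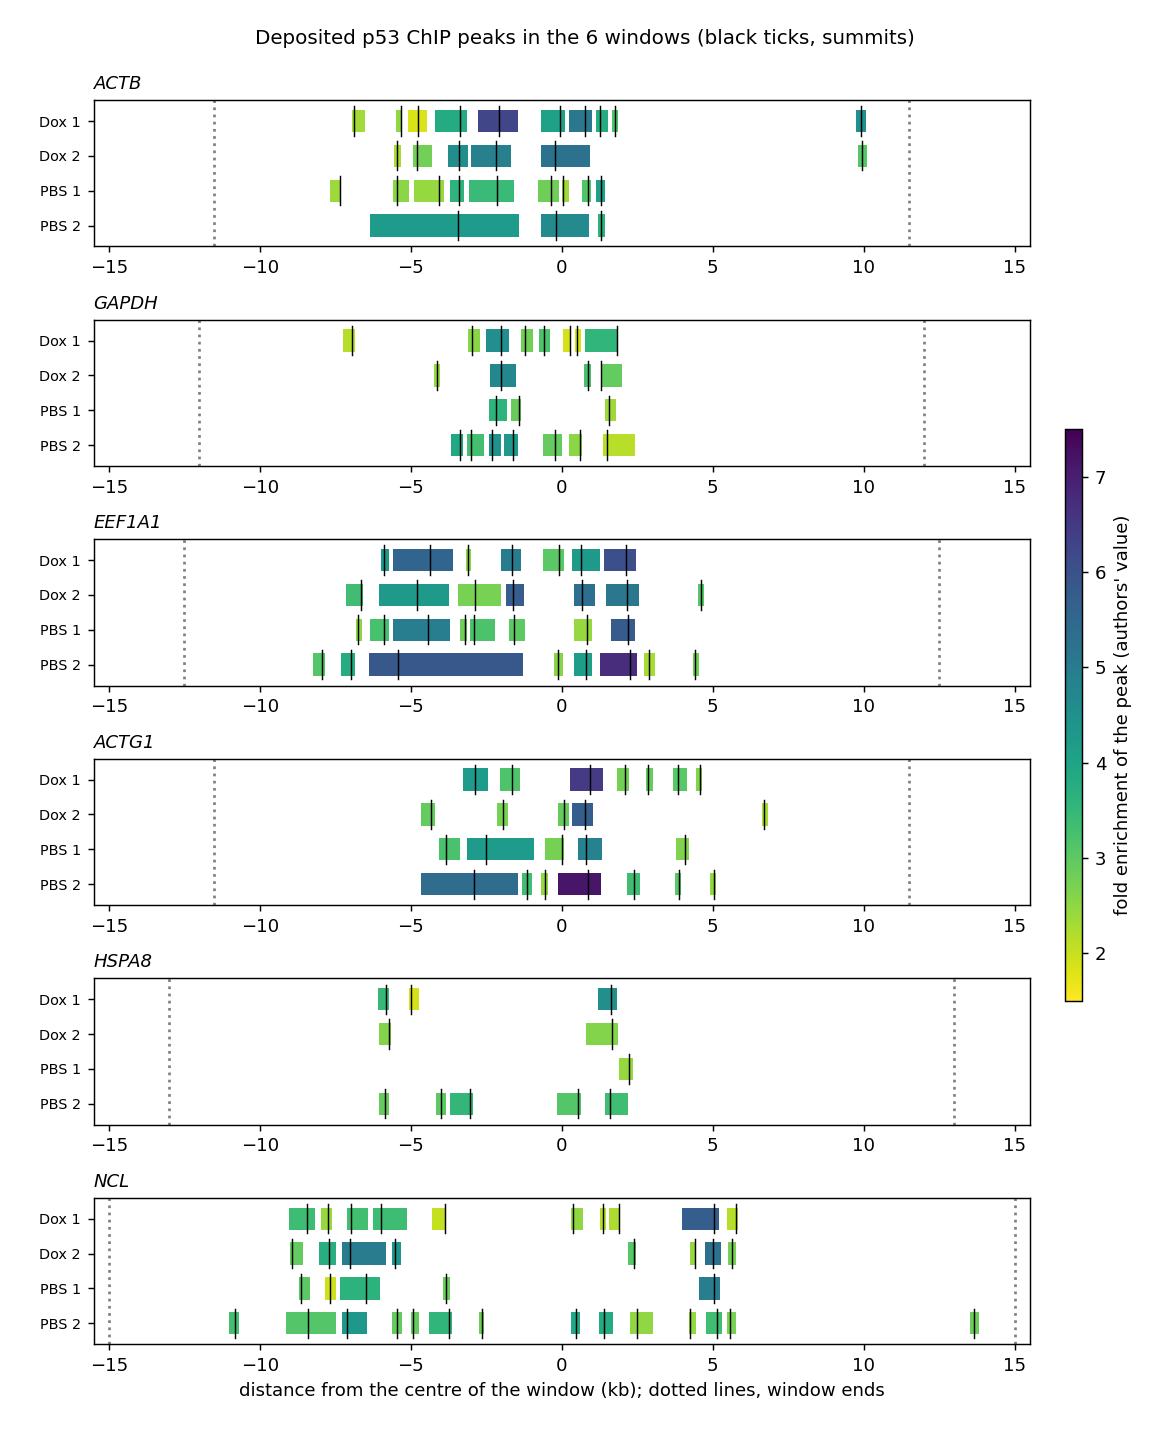
Each bar is a deposited peak in 1 of the 4 libraries (rows), placed by distance from the centre of the window in kb and coloured by the authors' fold enrichment, with its summit as a black tick. Most peaks of ACTB, GAPDH, EEF1A1 and ACTG1 lie around the centre, those of NCL spread widely on both sides of it, and HSPA8 has few.

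EEF1A1, the translation elongation factor gene, held 7 peaks in each Dox library and 8 in each PBS library. The counts do not overlap, with PBS higher by 1, and 8.86% of the tiles that hold any peak also had counts that do not overlap. That share rests on 30429 tiles, many of which lacked a peak in some libraries. Only 4454 tiles held a peak in all 4 libraries, as this window did, and the share among them was not computed. Peaks covered 5768 and 6892 bp of the window in Dox replicates 1 and 2, and 5674 and 8619 bp in PBS replicates 1 and 2. In covered length the conditions overlapped, and PBS replicate 2, with its peak of 5118 bp, was the highest. At most 0.0643% of all tiles were covered over as great a length in any library. A summit 2.2 kb to the right of the centre recurred in all 4 libraries within 151 bp, between positions 74230624 and 74230775. Its fold enrichment was 6.06 and 5.12 in Dox replicates 1 and 2, and 5.81 and 6.75 in PBS replicates 1 and 2. Its −log10 q was 3.68, 2.51, 3.07 and 5.72, so this summit passed 1.3 in each library. A second summit, from 74229126 to 74229349, had fold enrichments of 4.26, 5.36, 2.46 and 4.19 in the same order. There only Dox replicate 2 passed, with a −log10 q of 3.32. To the left of the centre, a merged site from 74222109 to 74227273 held 4 and 3 peaks in the Dox libraries, 5 in PBS replicate 1 and a single long peak in PBS replicate 2.

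ACTG1, the gamma actin gene whose promoter holds the half-site, had 7 and 5 peaks in Dox replicates 1 and 2 and 5 and 7 in PBS replicates 1 and 2. The conditions had the same mean number, 6 ± 1.41 each (SD, n = 2). Covered length was 3928 and 2056 bp in the Dox libraries and 4789 and 6073 bp in the PBS libraries. Here the groups do not overlap, with both PBS values above both Dox values, a pattern that 14.8% of tiles with any peak also showed in either direction. That share again includes tiles without a peak in some libraries. It was not computed for tiles with a peak in all 4 libraries, such as this window, and may be higher there. The leading summit, 0.8 kb to the right of the centre, recurred between 79479276 and 79479454. Its fold enrichment was 6.46 and 5.72 in Dox replicates 1 and 2, and 4.86 and 7.16 in PBS replicates 1 and 2. Its −log10 q of 4.41, 3.32, 1.26 and 6.83 passed 1.3 in all but PBS replicate 1. It was the peak of highest fold among the 6 windows in Dox replicate 1 and in PBS replicate 2. A second merged site, from 79473830 to 79477575, reached a −log10 q of 4.71 in PBS replicate 2, and 0.780, 0 and 0.939 in Dox replicates 1 and 2 and PBS replicate 1.

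ACTB, the beta actin gene, had 10 and 6 peaks in Dox replicates 1 and 2 and 9 and 3 in PBS replicates 1 and 2. The low count in PBS replicate 2 went with a single peak of 4909 bp, from 5562169 to 5567077, over a stretch where each of the other 3 libraries had 4 peaks. In covered length PBS replicate 2 was the highest, with 6723 bp, against 6110 and 4809 bp in the Dox libraries and 5318 bp in PBS replicate 1. The number of peaks and the length under peaks thus ordered the libraries differently, and by neither did Dox and PBS separate. A summit 3.4 kb to the left of the centre agreed within 55 bp over the 4 libraries, with fold enrichments of 3.83, 4.59, 3.62 and 4.22. A second, near the centre, spanned 404 bp and had 4.10, 5.23, 2.83 and 4.65 in the same order. The best −log10 q of the window was 4.52 and 2.40 in the Dox libraries and 0.347 and 2.59 in the PBS libraries.

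A site from 5578255 to 5578623, with summits 9925 and 9933 bp to the right of the centre of the ACTB window, was the 1 site of the 48 in the windows that both Dox libraries held and both PBS libraries lacked. Its fold enrichment was 4.54 in Dox replicate 1 and 3.11 in Dox replicate 2, with −log10 q of 1.595 and 0. Sites of that kind made up 3.11% of all merged sites. Sites held by both PBS libraries and lacking in both Dox libraries numbered 0 in the windows and made up 0.928% of all sites.

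NCL, the nucleolin gene, had 10 and 8 peaks in the Dox libraries and 5 and 14 in the PBS libraries, replicate 1 first. The PBS libraries thus lay on either side of the Dox libraries. Covered length was 6071, 4034, 2945 and 7191 bp, with the same order of libraries as the number of peaks. Distances of the summits from the centre ran from -10830 bp to 13654 bp, both in PBS replicate 2. On the right, a summit 5.1 kb from the centre, between 232329000 and 232329133, had fold enrichments of 5.72, 5.31, 4.97 and 3.34 in Dox replicates 1 and 2 and PBS replicates 1 and 2. Its −log10 q was 3.40, 2.57, 1.57 and 0.444, so PBS replicate 2, with the most peaks, was the library that did not reach 1.3. On the left, the merged site from 232316653 to 232318896 had fold enrichments of 3.36, 5.03, 3.64 and 4.29.

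GAPDH, the glycolytic enzyme gene, had 8 and 4 peaks in the Dox libraries and 3 and 7 in the PBS libraries. Covered length was 3902, 1993, 1278 and 3943 bp in the same order, so Dox replicate 1 and PBS replicate 2 were high and the other 2 low by both measures. Its leading summit lay 2.1 kb to the left of the centre, between 6643704 and 6643990, and at the same position in both Dox libraries. Fold enrichment there was 4.53, 4.73, 3.62 and 4.47, with a −log10 q of 1.43, 2.01, 0 and 1.30029. The value in PBS replicate 2 stood at the threshold itself, and at a q of exactly 0.05 it falls just short.

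HSPA8, the chaperone gene, had the shortest length under peaks of the 6 in each library. It held 3 and 2 peaks in the Dox libraries and 1 and 5 in the PBS libraries, which covered 1344, 1443, 477 and 3021 bp. Its highest fold enrichment was 4.50 in Dox replicate 1, at the percentile 97.0 of that list, 2.62 in Dox replicate 2 and 2.46 and 3.52 in PBS replicates 1 and 2, at the percentiles 38.5, 32.3 and 82.7. Only Dox replicate 1 had a peak with a −log10 q over 1.3, of 1.82. A merged site from 122931808 to 122933368 had a peak in all 4 libraries, but its summits did not link across all 4 at gaps of at most 200 bp. The peak of PBS replicate 1, the only one of that library in the window, had its summit 2222 bp from the centre, and the nearest summits of the other libraries lay 1596 to 1659 bp from the centre. Of all tiles, 4.24%, 2.54%, 6.63% and 0.379% held at least as many peaks as this window in the 4 libraries, in the order used above.

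**Figure D3:**
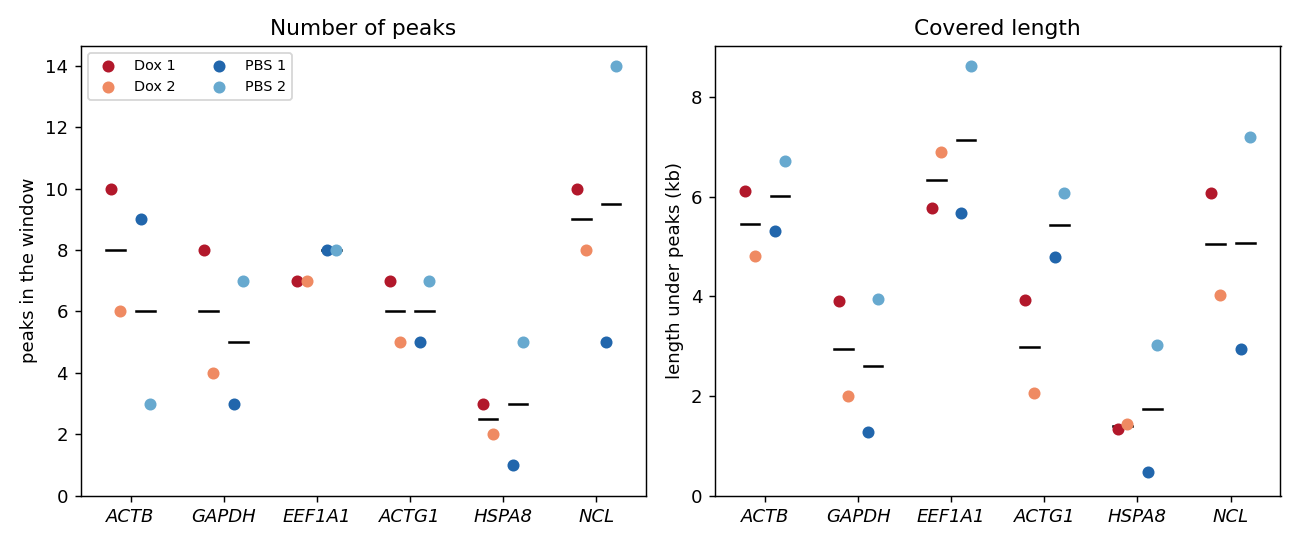
Number of peaks (left) and length under peaks in kb (right) for each gene's window, with 1 point per library and a black line at the mean of the 2 libraries of a condition. NCL in PBS replicate 2 has the most peaks, 14, and HSPA8 the fewest in 3 of the 4 libraries.

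With all deposited peaks, the number in the 6 windows together did not separate Dox from PBS. It was 45 and 32 in the Dox libraries and 31 and 44 in the PBS libraries, a mean of 38.5 ± 9.19 against 37.5 ± 9.19 (SD, n = 2 each). The exact permutation test, two-sided, gave p = 0.667, and the smallest p it allows is 0.333. The difference of 1 peak was smaller than the spread between the replicates of either condition. Within replicate number 1 Dox had 14 more peaks than PBS, and within number 2 the difference was -12. Dox replicate 1 has the longest list and PBS replicate 1 the shortest. With the same number of top peaks by p from each list, 11304, the windows held 25 and 28 peaks in the Dox libraries and 31 and 29 in the PBS libraries. The sign was then the opposite, a difference of -3.5, and the exact permutation p was the smallest possible, 0.333. With a −log10 q of at least 1.3 the counts separated in the other direction, 10 and 11 for Dox against 3 and 8 for PBS, a difference of 5 with the same exact permutation p of 0.333.

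With all deposited peaks, covered length did not separate the conditions. Means were 24175 ± 4169 bp in Dox libraries and 28026 ± 10670 bp in PBS libraries (SD, n = 2 each), with a two-sided exact permutation p of 1. Within number 1 Dox was higher by 6642 bp, and within number 2 the difference was -14343 bp. At equal list length the groups did not overlap, with 20001 and 20386 bp for Dox and 20481 and 29578 bp for PBS, a difference of -4836 bp with the smallest possible exact permutation p, 0.333. With a −log10 q of at least 1.3 the difference was -2 bp. Peaks lay under 18.0%, 14.1%, 13.6% and 23.6% of the windows' length in Dox replicates 1 and 2 and PBS replicates 1 and 2, against 0.550%, 0.194%, 0.129% and 0.265% of the genome. PBS replicate 2 had the largest covered share of the windows with a list shorter than that of Dox replicate 1.

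The share of sites found in all 4 libraries was higher in the windows than over all sites. Merged over the 4 libraries, the peaks of the windows formed 48 sites, of which 12 (25%) had a peak in all 4 and 20 (41.7%) in 1 only. Of all 63890 merged sites, 6.01% had a peak in all 4 libraries and 72.5% in 1. Each window held at least 1 site in all 4, with 3 in NCL, 2 each in ACTB, GAPDH, EEF1A1 and ACTG1, and 1 in HSPA8. Wide peaks overlap others more readily than narrow ones, and the part of width in this count was not tested. Summits were also linked in a chain wherever neighbours lay within 200 bp, so that a linked place can span more. By this rule 7 places recurred in all 4 libraries, 2 in ACTB, 2 in EEF1A1, 1 each in GAPDH, ACTG1 and NCL, and 0 in HSPA8. Summits outside the windows were not linked, so this count has no share over the genome to be read against.

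**Figure D4:**
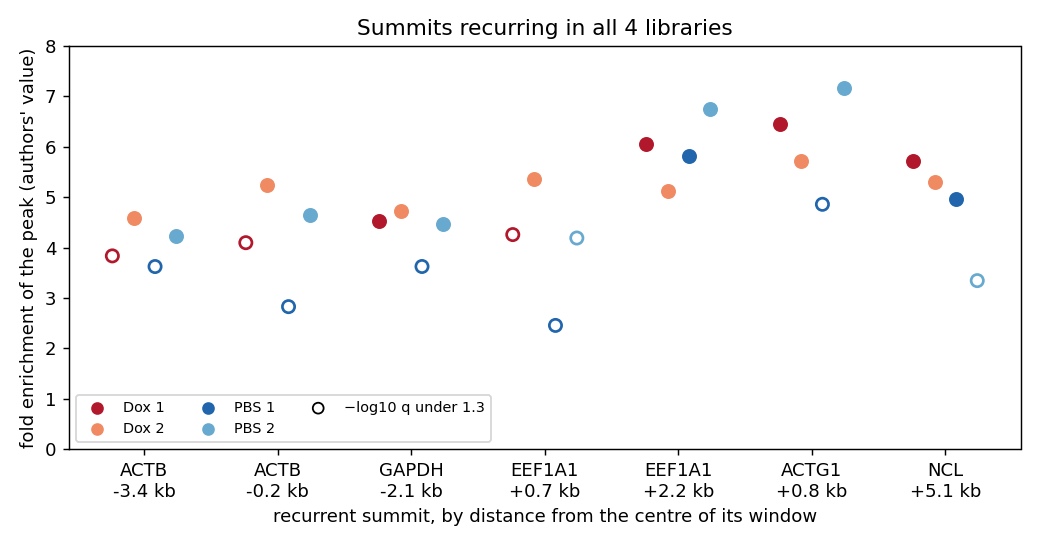
The authors' fold enrichment at the 7 summits that recurred in all 4 libraries, named by gene and distance from the centre of the window, with open circles where the −log10 q was under 1.3. Values run from 2.46 to 7.16, and all 4 libraries passed at 1 summit, that of EEF1A1 at 2.2 kb.

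The authors' tables of peaks matched between the 2 replicates of a condition give each pair an irreproducible discovery rate (IDR). In the windows there were 21 Dox pairs, 6 in ACTB, 2 in GAPDH, 4 in EEF1A1, 2 in ACTG1, 2 in HSPA8 and 5 in NCL. For PBS there were 16, namely 3, 2, 3, 3, 1 and 4 in the same genes. All 6 windows had a pair in both conditions, while 5.58% of tiles held a Dox pair and 4.13% a PBS pair. At an IDR of at most 0.05, 13 of the 21 Dox pairs (61.9%) and 5 of the 16 PBS pairs (31.2%) were counted, against 27.5% of all 8784 Dox pairs and 15.0% of all 6244 PBS pairs. Such pairs lay in all 6 windows for Dox and in 3 for PBS, EEF1A1, ACTG1 and NCL, where 1.69% and 0.690% of tiles had them. The lowest IDR was 4.42e-05 for Dox, at the leading ACTG1 summit, and 0.000676 for PBS, at that of EEF1A1. In HSPA8 the single PBS pair had an IDR of 0.616 and the better Dox pair 0.0218. There is 1 table per condition, so no test across libraries applies, and the PBS table rests on the shortest list.

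Outside the windows, the nearest peak to EEF1A1 was 44297, 44224, 122929 and 44475 bp from the end of the window in Dox replicates 1 and 2 and PBS replicates 1 and 2. In the 100 kb on each side there were 4, 2, 0 and 2 peaks around EEF1A1, 2, 2, 0 and 0 around HSPA8 and 5, 1, 2 and 3 around NCL. The surroundings of ACTG1, with 34, 9, 5 and 14 peaks, of ACTB, with 28, 9, 8 and 10, and of GAPDH, with 19, 9, 5 and 11, held more. The nearest peak to the ACTG1 window lay 1823 and 1848 bp from its end in Dox replicates 1 and 2, with fold enrichments of 2.63 and 3.76, and 8038 and 8021 bp from it in PBS replicates 1 and 2, with 4.13 and 6.42. Peaks farther out were counted and not compared.

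ACTB and ACTG1 have similar coding sequences, and members such as ACTB, GAPDH, EEF1A1 and HSPA8 have processed pseudogenes elsewhere in the genome. No source used here states how reads that map to several places were treated, so values over the transcribed sequence of these genes are uncertain.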

How the data were processed

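Per the submitters' processing notes, BWA and MACS2 were run on hg19; no source used here gives versions or filters. Each ChIP library has its own MACS2 list, deposited by the authors with a fold enrichment per peak (a ratio over local background) and the p-value and q-value as −log10. A threshold of p under 0.05 stands in the peak names. The authors also deposited 1 table of matched replicate peaks per condition with an irreproducible discovery rate, a fraction from 0 to 1, per the file headers. The files give no read depth, so none is stated. Starts are given counted from 1.

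Peaks overlapping the windows by at least 1 bp were counted, and their length merged. The whole genome was cut into 121390 tiles of 25 kb up to the last peak of each of 23 chromosomes. Peaks of the 4 lists were merged into sites at 1 bp of overlap. Library values were compared by exact permutation tests. The counting steps, tested on simulated peaks in 6 windows, got 0 wrong. The genes and windows, and the lists and tests, were chosen with earlier results of these data known; all 6 members are named with all their windows. Covered length, summit linking and motif search were added after the peaks had been seen. The planned counts for other highly transcribed genes and for p53 targets needed an hg19 annotation and were not run. Software was matplotlib 3.10.9, scipy 1.17.1, pandas 2.3.3 and numpy 2.4.6 under Python 3.11.15.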

Additional observations from a re-analysis of the deposited data

How the results depend on the processing

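All 6 windows held a peak in each library with whole lists, with equal list length, by summit position, and with windows 5 kb shorter or 10 kb longer at both ends. With peaks of a −log10 q of at least 1.3 alone, the mean number of windows with a peak was higher by 2.5 for Dox (two-sided exact permutation p = 0.333), against 0 with all peaks. The difference in peak number, 1, became -3.5 with equal list length (by construction fewer peaks of the longer lists) and 5 with the q threshold, each with the groups apart (exact permutation p = 0.333), and 6.5 with longer windows. It ran from -5.5 to 7.5 when 1 library was left out: it was -5.5 without Dox replicate 1 and also -5.5 without PBS replicate 1. The difference in covered length, -3850.5 bp, was -4836 bp at equal list length, with the groups apart (exact permutation p = 0.333), -2 bp with the q threshold and -1764 bp with longer windows. It ran from -11395 bp without PBS replicate 1 to 3694 bp without PBS replicate 2. With a replicate block the differences stayed 1 peak and -3850.5 bp by construction (exact sign-flip permutation p = 1 for both), and leaving out a library left 0 as the difference in windows with a peak. Same-numbered libraries deviated together weakly, with a correlation over tiles of 0.169 and 0.0693 at equal list length; the numbers share a passage, and whether they share a culture is not given.

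Peaks in the windows fell to 10, 11, 3 and 8 in Dox replicates 1 and 2 and PBS replicates 1 and 2 at a −log10 q of at least 1.3, and to 25 in Dox replicate 1 and 29 in PBS replicate 2 at equal list length. Tiles with a peak made up 10.5%, 4.31%, 3.00% and 5.83% at 10 kb, 30.4%, 15.6%, 11.6% and 20.8% at 50 kb, and 1.25%, 0.556%, 0.197% and 0.970% with the q threshold. Matched pairs fell to 13 for Dox and 5 for PBS at an IDR of at most 0.05. Sites in all 4 libraries numbered 12, 9 when peaks within 500 bp were merged, and 7 by linked summits. The q threshold and the tile sizes change these values by construction. Read depth is not in the files, so how far it limits the windows' peak counts was not tested.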
